A study of Arabidopsis thaliana with 6 samples.

Results

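miR169 was followed here in small RNA libraries of Arabidopsis thaliana leaf explants, through the sequence that has predicted sites in messages of the NF-YA genes. A miRNA entry was taken when the deposited target predictions gave it a site in at least 3 of 7 NF-YA genes (NF-YA1, 2, 3, 5, 8, 9 and 10). This took 5 of 178 entries. All 5 carry the same mature sequence and the same counts, so they hold 1 of 142 distinct sequences, which is annotated as the product of MIR169h to MIR169n and is called miR169h-n below. It has sites in all 7 of these genes. No other distinct sequence came near the limit, since 5 had a site in 1 of the 7 genes and none in 2 to 6. As the rule gave 1 distinct member, it was compared with the 3 other sequences of the table that lie in MIR169 hairpins and have no NF-YA site.

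The libraries come from 2 genotypes with 3 libraries each, stated to be biological replicates: the wild type Col-0, the control, and ein2-1, a line with a mutation in EIN2, the membrane protein that passes the ethylene signal to the nucleus. Both genotypes were treated alike. Seedlings were 14 days old when held under water for 1 hour, and their leaf explants then spent 7 days on callus-inducing medium (CIM), after which the upper part of the explants was taken. Since every library had the submergence and the medium, neither effect can be read from these data. The messages of EIN2 and of the NF-YA genes were not measured, so the genotype was not checked by EIN2, and what is said of NF-YA is the predicted sites. A bulk explant library also cannot tell fewer cells that make a miRNA from less of it per cell.

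miR169 is a conserved plant miRNA family. Its guide strand pairs with a site in the messages of NF-YA genes and directs their cleavage. NF-YA proteins join NF-YB and NF-YC partners into the trimeric NF-Y factor, in which NF-YA reads the CCAAT box of promoters. In Arabidopsis, miR169 is known to fall in nitrogen starvation and drought, and its NF-YA targets have roles in drought response, root and leaf growth and embryo development.

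The sequences are shown first, because which MIR169 genes they can come from decides what the counts stand for. The 4 guide sequences annotated at the 14 MIR169 genes of the RefSeq annotation of TAIR10.1 share a core of 18 bases, given in capitals. They differ at their ends only, and of the 4, miR169h-n alone is in the table.
miR169h-n: uAGCCAAGGAUGACUUGCCug
miR169a-5p: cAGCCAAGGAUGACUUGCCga
miR169b-5p and miR169c: cAGCCAAGGAUGACUUGCCgg
miR169d, e, f-5p and g-5p: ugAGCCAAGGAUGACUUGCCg
The levels of the other 3 guides are thus not known here.

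The 4 miR169 sequences of the table are printed next with their seed, bases 2 to 8, in capitals.
miR169h-n: uAGCCAAGgaugacuugccug
19-nt product of MIR169i/j/k/m: gGCAGUCUccuuggcuauc
miR169b-3p: gGCAAGUUguccuucggcuaca
miR169a-3p: gGCAAGUUguccuuggcuac
miR169b-3p and miR169a-3p share the seed GCAAGUU, and the other 2 have a seed of their own. miR169h-n is 21 nt long and matches 7 genes on the minus strand. MIR169h lies on chromosome 1, with the mature sequence at chr1:6695544-6695564. The other 6 lie in a row on chromosome 3, from MIR169i, with the mature sequence at chr3:9872106-9872126, to MIR169n, at chr3:9878690-9878710. A read of miR169h-n cannot be assigned to any 1 of the 7 genes.

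The 19-nt product, carried by 5 entries, matches the other arm of 4 of these hairpins, MIR169i, MIR169j, MIR169k and MIR169m, and has no annotated mature product there. The stretch of MIR169i from the first base of miR169h-n to the last base of the 19-nt product (TAIR10.1, chr3:9871999-9872126, minus strand, 128 bases) shows both arms in capitals.
MIR169i: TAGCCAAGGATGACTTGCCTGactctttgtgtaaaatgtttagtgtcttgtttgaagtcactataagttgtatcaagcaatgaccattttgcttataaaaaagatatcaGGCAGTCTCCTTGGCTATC
miR169b-3p is the arm opposite the guide of MIR169b on chromosome 5 (chr5:8527592-8527613, plus strand), and miR169a-3p that of MIR169a on chromosome 3 (chr3:4359011-4359030, minus strand). In MIR169b (chr5:8527511-8527613, plus strand, 103 bases) the arm found in the table is in capitals, while the guide arm at its start is not in the table.
MIR169b: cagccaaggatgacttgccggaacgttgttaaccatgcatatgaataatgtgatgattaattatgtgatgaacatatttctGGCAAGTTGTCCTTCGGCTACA

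miR169h-n fell in ein2-1. In replicate order it was counted 43, 34 and 30 times in the Col-0 libraries but only 3, 7 and 10 times in those of ein2-1, although the ein2-1 libraries were the larger ones. TMM-scaled levels in CPM, the counts set to a common library size, were 72.6, 90.3 and 76.5 for Col-0 against 7.43, 7.61 and 11.8 for ein2-1. Every ein2-1 library lay below every Col-0 library. The 3 values of ein2-1 rest on few counts and on the scaling. Unscaled, miR169h-n made up 0.00772%, 0.0102% and 0.0089% of the distinct counts in Col-0. In ein2-1 these shares were 0.000495%, 0.000709% and 0.00135%. The mean level went from 79.8 ± 9.29 to 8.94 ± 2.46 CPM (SD, n = 3). The fold change fitted by edgeR, which need not equal the ratio of these means, was 8.49-fold lower, or -3.09 in log2 with an SE of 0.38 (edgeR quasi-likelihood test, Benjamini-Hochberg adjusted p = 2.1e-08 over 120 sequences tested).

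Such a call was common in these data. Of the 120 sequences tested, 31.7% were called lower in ein2-1 and 20.8% higher, 59.2% did not overlap between the genotypes, 33.3% lay lower in every ein2-1 than in every Col-0 library, and 16.7% were called at 4-fold lower or more. Rises made up 39.7% of the calls, and 50.0% of them under RLE scaling, which gave 39 calls of a rise in place of 25. The median log2 fold change over all sequences was -0.15, with quartiles of -1.30 and 0.70. Within these, miR169h-n had the ninth lowest of the 120 fold changes, and 78th place by level.

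**Figure D1:**
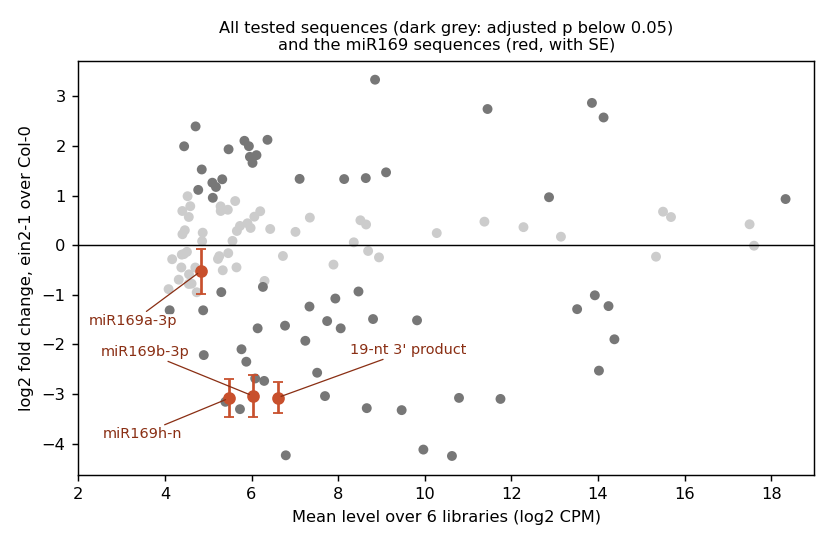
Mean level over the 6 libraries (x axis, log2 CPM) against the log2 fold change with ein2-1 set over Col-0 (y axis) for the 120 sequences tested, dark grey where the adjusted p is below 0.05 and light grey elsewhere, with the 4 miR169 sequences in red and their SE as bars. miR169h-n, the 19-nt product and miR169b-3p sit together at -3.09, -3.07 and -3.04, and miR169a-3p at -0.53.

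The low counts limit the precision. miR169h-n reached the filter level of 17.2 CPM (10 counts in a library of median size) in all 3 Col-0 libraries and in 0 of the ein2-1 libraries. It was thus tested through its level in Col-0. The 19-nt product, miR169b-3p and miR169a-3p also reached that level in all 3 Col-0 libraries. In ein2-1 they reached it in 2, 1 and 1 libraries, so they too were tested through Col-0. Intervals given for counts cover counting error only, as PCR copies were not told apart by molecular identifiers.

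The opposite arm of MIR169i, j, k and m fell too. For the 19-nt product the Col-0 libraries gave 88, 70 and 76 counts, and the ein2-1 libraries 8, 19 and 18. Its levels of 149, 186 and 194 CPM for Col-0 stood far above the 19.8, 20.7 and 21.2 CPM for ein2-1, without overlap. It went from 176 ± 24.1 to 20.5 ± 0.70 CPM (SD, n = 3). The small SD in ein2-1 rests on few counts and on TMM factors of 0.666, 0.932 and 1.15 in replicate order. The authors' normalised counts for these libraries were 9, 14 and 17. The fitted log2 fold change was -3.07 (SE 0.32, edgeR adjusted p = 1.1e-09). Both arms can come from MIR169i, j, k and m.

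miR169b-3p, from a hairpin on another chromosome, fell as well but was uneven in ein2-1. The Col-0 libraries held 53, 50 and 52 counts, those of ein2-1 3, 4 and 24. The levels of 89.5, 133 and 133 CPM in Col-0 stood against 7.43, 4.35 and 28.3 CPM in ein2-1, so ein2-1 replicate 3 lay well above the other two and still below Col-0. Its fitted log2 fold change was -3.04 (SE 0.42, edgeR adjusted p = 1.7e-07), and -4.64 without ein2-1 replicate 3.

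miR169a-3p did not pass the test. It had 15, 10 and 15 counts in the Col-0 libraries, fewer than the other 3 sequences, but 19, 13 and 9 in those of ein2-1. Levels of 25.3, 26.6 and 38.2 CPM for Col-0 overlapped with those of 47.0, 14.1 and 10.6 CPM for ein2-1. ein2-1 replicate 1 was the highest of all 6 libraries and ein2-1 replicate 3 the lowest. For miR169a-3p the fitted log2 fold change was -0.53 (SE 0.45, edgeR adjusted p = 0.33). Without ein2-1 replicate 1 it was -1.33 and passed (edgeR adjusted p = 0.0072). The TMM factor of that library, 0.666, was the lowest of the 6, against 0.932 and 1.15 in the other ein2-1 libraries. With RLE factors, which were 0.843, 0.835 and 0.931 in ein2-1, the value was -0.46.

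**Figure D2:**
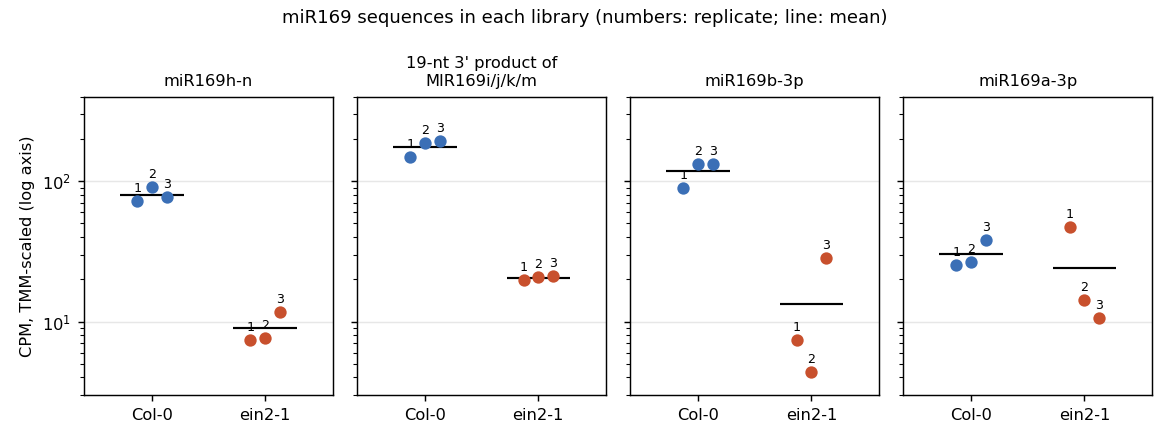
Level in CPM (TMM-scaled, log axis) of each miR169 sequence in the 3 Col-0 and 3 ein2-1 libraries, with the replicate number beside each point and a line at the mean. miR169h-n, the 19-nt product and miR169b-3p are lower in every ein2-1 library, from means of 79.8, 176 and 118 CPM to 8.94, 20.5 and 13.3 CPM, while miR169a-3p overlaps.

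To ask whether the sequences differ from each other in their genotype difference, their counts were set against each other within each library, where no scaling factor enters. A limma fit was run on the log2 ratio of every tested sequence to 1 reference sequence (0.5 added to each count), and p-values were adjusted over the 119 ratios. The reference is part of every ratio, so these tests share its error. The limma fit also pools the spread over all ratios, so its p-values and intervals do not measure the spread of a pair alone. All 6 pairs among the 4 miR169 sequences were compared. As background, 88.2% of the ratios passed with miR169h-n as reference, 88.2% with the 19-nt product, 77.3% with miR169b-3p and 43.7% with miR169a-3p.

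No difference between the arms of MIR169i, j, k and m passed the test. The 19-nt product was counted 2.03, 2.04 and 2.51 times as often as miR169h-n in Col-0, and 2.43, 2.60 and 1.76 times in ein2-1. The ranges overlap. The log2 fold changes differed by 0.03 (95% interval -0.90 to 0.96, limma adjusted p = 0.957). The interval is wide, so the test does not show that the arms moved identically.

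miR169b-3p and miR169h-n did not differ past the threshold either, with a difference of -0.38 (95% interval -1.35 to 0.58, limma adjusted p = 0.468). This rests on ein2-1 replicate 3. Without it the difference was -0.91 and passed (limma adjusted p = 0.030), and that of miR169b-3p against the 19-nt product went from -0.41 (limma adjusted p = 0.50) to -1.11 (limma adjusted p = 0.016).

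miR169a-3p differed from the other 3 by the limma fit, but not past the threshold by the permutation test given below. Its ratio to miR169h-n was 0.356, 0.304 and 0.508 for the Col-0 libraries and rose to 5.57, 1.80 and 0.905 for those of ein2-1. The genotypes did not overlap in this ratio, but the share of all ratios without overlap was not counted, so nothing is read from it. Its log2 fold change lay above that of miR169h-n by 2.45 (95% interval 1.46 to 3.45, limma adjusted p = 7.4e-06). The difference was 1.75 without ein2-1 replicate 1 and 3.06 without ein2-1 replicate 3, and passed in both. The 19-nt product and miR169b-3p lay below miR169a-3p, with differences of -2.42 (limma adjusted p = 0.00019) and -2.84 (limma adjusted p = 1.9e-05). Both differences had a fitted SE of 0.58, although their log2 ratios had SDs of 1.14 and 2.01 in ein2-1. By an exact permutation test of each pair (two-sided), the 3 pairs with miR169a-3p had p = 0.10, the smallest that 3 against 3 libraries allow, and p = 0.20 after adjustment over the 6 pairs.

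**Figure D3:**
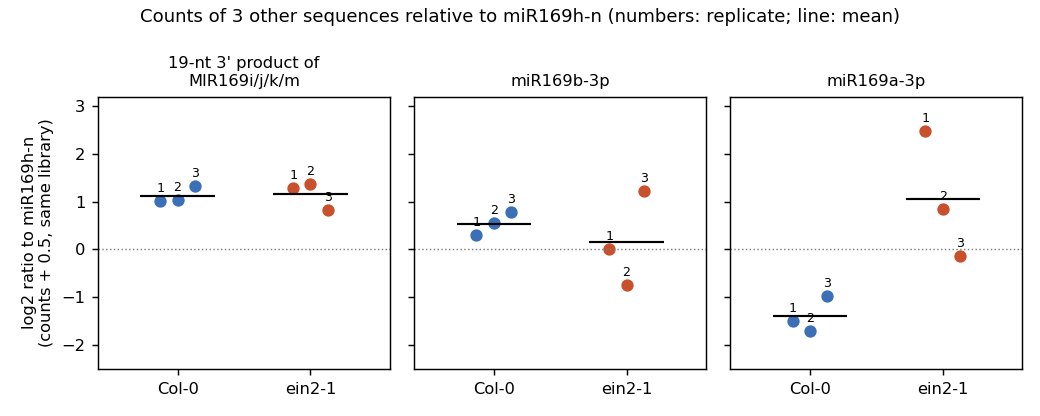
log2 ratio of the counts of the 19-nt product, miR169b-3p and miR169a-3p to those of miR169h-n in the same library (0.5 added to each count), with the replicate number beside each point and a line at the mean. The ratio of the 19-nt product overlaps between the genotypes, and that of miR169b-3p is spread in ein2-1. That of miR169a-3p is higher in every ein2-1 library. The share of all ratios without overlap was not counted.

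The make-up of the miR169 counts is given next as shares, with no test. miR169h-n made up 21.6%, 20.7% and 17.3% of the counts of the 4 sequences in Col-0, and 9.09%, 16.3% and 16.4% in ein2-1. In ein2-1 replicate 1, where the 4 sequences had 33 counts in all, its 95% interval was 1.92% to 24.3% (exact binomial, counting error only). miR169a-3p made up 6.10% to 8.67% in Col-0 and 57.6%, 30.2% and 14.8% in ein2-1. The 19-nt product had the highest share in Col-0, at 43.6% ± 0.82 (SD, n = 3), and miR169b-3p had 29.1% ± 2.11. Summed, the 4 sequences had 199, 164 and 173 counts in Col-0 and 33, 43 and 61 in ein2-1, or 404 ± 59.1 and 66.8 ± 18.0 CPM (SD, n = 3).

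Most other sequences did not fall as far as miR169h-n. In the within-library ratios, 85.7% of the 119 sequences were called as falling less than miR169h-n or rising (limma adjusted p below 0.05). A further 2.52% were called as falling more, and 14 sequences were not called. The 3 called as falling more were miR167c-3p, miR398a-5p and an unannotated sequence, numbered 196 by its entry. miR167c-3p, the strand opposite an auxin-linked guide, differed by -1.25 (limma adjusted p = 0.012). For miR398a-5p, the strand opposite a copper-linked guide, the difference was -1.20 (limma adjusted p = 0.021). For sequence 196 it was -1.07 (limma adjusted p = 0.029).

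The sequences whose levels ran most like those of miR169h-n over the 6 libraries were named by Pearson's r of log2 CPM. This is a description, as the points share libraries, scaling factors and the 2 genotypes. Outside MIR169 they were miR860 (r = 0.997), the unannotated sequence 196 (r = 0.991), miR840-5p (r = 0.985), miR319a/b (r = 0.983), which limits TCP genes of leaf growth, and the unannotated sequence 234 (r = 0.975). The pattern is a common one, for 26 of 119 sequences had an r above 0.9. The 19-nt product had 0.993, miR169b-3p 0.962 and miR169a-3p 0.321. miR860 had 97.9, 92.9 and 99.4 CPM in Col-0 against 7.43, 7.61 and 12.9 CPM in ein2-1. miR860 has a predicted site in NF-YA4 at an expectation of 4.5, and that gene is outside the rule. The site was not found by exact match in the reference gene, so it was not placed.

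Other sequences of miRNA families known to answer to nutrient supply were counted from the same fit. In that fit 52.5% of the 120 sequences were called, 20.8% as a rise and 31.7% as a fall. The lists go by family number, so they also take strands opposite a guide. With so few sequences in each list, nothing is read from the counts. Of 3 further sequences in the nitrogen list (miR393a/b-5p, miR167c-3p and miR167a-3p), 1 rose and 2 fell, with a median log2 fold change of -1.23 against -0.15 over all sequences. The phosphate list had 1 rise and 1 not passed among 2 sequences, and the copper list 1 rise, 1 fall and 2 not passed among 4 tested, with 1 more of its 5 sequences below the count filter. The sulfate list had 1 sequence, a product of MIR395a/e, which was below the count filter. The nitrogen falls were those of miR167c-3p and miR167a-3p, and the copper fall that of miR398a-5p. The nitrogen and copper rises were those of miR393a/b-5p and miR398b/c-3p.

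On the target side, miR169h-n has a predicted site in 8 of the 10 NF-YA genes, the 7 of the rule and NF-YA6. NF-YA4 and NF-YA7 have none among the lines used here. For miR169h-n, 0 of 10 NF-YB and 0 of 10 NF-YC genes, the partner subunits, have a site at an expectation of at most 5. Each NF-YA gene has 1 site, found in every coding transcript that RefSeq gives it, from 1 in NF-YA5 and NF-YA9 to 7 in NF-YA10. All 8 sites lie in an exon of the 3′ untranslated region and none touches coding sequence. All 8 are listed as cleavage sites. The expectation, psRNATarget's penalty for imperfect pairing, was 1 to 2.5, where the sheet goes up to 5.

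The 8 sites fall into sets of 4 by their pairing. They are printed 5′ to 3′ along the message, with capitals at each base that makes no Watson-Crick pair with miR169h-n.
NF-YA3: AGggGaagucauccuuggcua
NF-YA5: ACggGaagucauccuuggcua
NF-YA6: AaggGaagucauccuuggcua
NF-YA8: AaggGaagucauccuuggcuG
NF-YA1: cCggcaaAucauUcuuggcuU
NF-YA2: caggcaaAucaucUuuggcuC
NF-YA10: caggcaaAucaucUuuggcuC
NF-YA9: GCggcaaUucauUcuuggcuU
In the first 4, positions 17 and 21 of the miRNA, counted from 1 at its 5′ end, are unpaired. NF-YA5 has a further unpaired position at 20, NF-YA3 a G:U wobble at 20 and NF-YA8 a wobble at 1. In the other 4, positions 1 and 14 are unpaired, with a wobble at position 9 in NF-YA1 and NF-YA9 and at position 8 in NF-YA2 and NF-YA10. NF-YA1 is also unpaired at 20, and NF-YA9 at 20 and 21. The sites of NF-YA2 and NF-YA10 are identical.

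**Figure D4:**
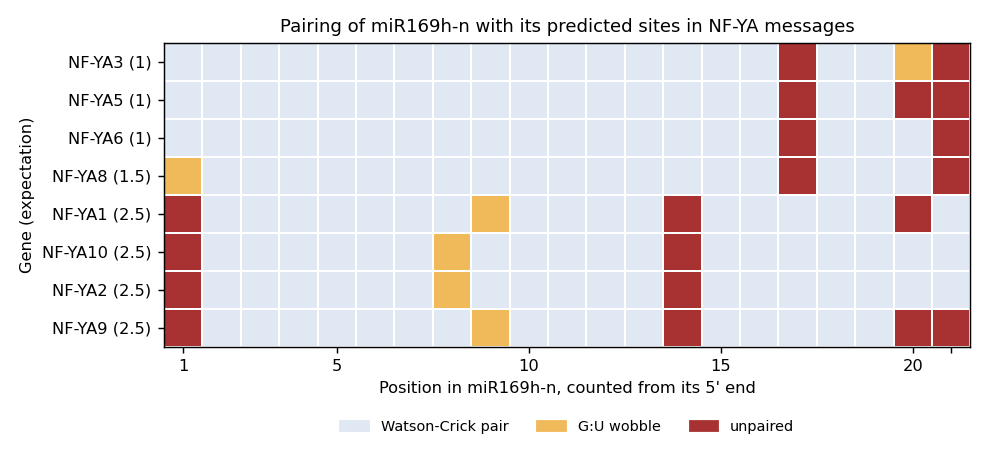
Pairing of each of the 21 positions of miR169h-n (x axis, from its 5′ end) with its predicted site in 8 NF-YA messages (rows, with the expectation in brackets), pale for a Watson-Crick pair, yellow for a G:U wobble and red for unpaired. NF-YA3, 5, 6 and 8 share unpaired positions 17 and 21, and NF-YA1, 2, 9 and 10 share unpaired positions 1 and 14.

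The first set has the better scores. NF-YA3 (expectation 1, site at chr1:27405638-27405658), which acts with NF-YA8 in early embryos, and NF-YA5 (1, chr1:20217494-20217514), a drought-induced gene of guard cells, lie on the minus strand of chromosome 1, as does NF-YA8 (1.5, chr1:6050422-6050442). NF-YA6 (1, chr3:4644334-4644354), with a role in seed development, lies on the plus strand of chromosome 3. In the second set all 4 have an expectation of 2.5. NF-YA2 (chr3:1676807-1676827, minus strand), a regulator of root and leaf growth, and NF-YA9 (chr3:7328379-7328399, plus strand) lie on chromosome 3. Both NF-YA9 and NF-YA1 have roles in gametes and embryos. NF-YA1 (chr5:4051058-4051078, minus strand) and NF-YA10 (chr5:1986749-1986769, plus strand), which acts with NF-YA2 in leaves, lie on chromosome 5. These coordinates are of TAIR10.1.

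The NF-YA genes lead the predictions of miR169h-n. This is a description only, since the rule took miR169h-n by its sites in NF-YA genes. It has sites in 68 genes, and of the 4 with an expectation of at most 2 all are NF-YA genes, while of the 12 at up to 3, 8 are. The best outside NF-YA was AT5G42120, annotated to the lectin protein kinase family, at 2.5. AT3G19540, AT4G35080 and AT5G44980 follow at 3, and CALS1, a callose synthase gene, is 1 of 6 genes at 3.5. The other arms have no NF-YA site, and their best predictions were DPE2, an enzyme of starch breakdown, at 2 for miR169a-3p, 4 genes at 2.5 for the 19-nt product and 3 genes at 3 for miR169b-3p.

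The 5 sequences with sites in 1 of the 7 NF-YA genes stayed outside the rule. The unannotated sequence 17, miR779.2 and miR172a/b-3p have theirs in NF-YA5, miR167c-3p has one in NF-YA2, and a further unannotated sequence has one in NF-YA8. Sequence 17, mostly a repeat of GAU with 8 matches in the genome, has the best score of these, at 0. Its site is a stretch of the matching repeat, outside both the coding sequence and the 3′ untranslated region. Among the 5 sequences, sequence 17 fell with -2.74 (edgeR adjusted p = 1.3e-07), miR779.2 with -3.32 (edgeR adjusted p = 1.2e-09) and miR167c-3p with -4.25 (edgeR adjusted p = 2.5e-11). miR172a/b-3p had 0.50 and did not pass (edgeR adjusted p = 0.116), and the sequence with a site in NF-YA8 was below the count filter.

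The authors' own list of 46 selected entries holds none from MIR169. In the authors' deposited table of all entries miR169h-n has a log2 fold change of -2.68 (FDR 8.8e-14), the 19-nt product -2.67 (FDR 1.8e-21), miR169b-3p -2.60 (FDR 2.0e-07) and miR169a-3p -0.22 (FDR 0.638). How the authors chose their list is not stated in the labels or headers.

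**Figure D5:**
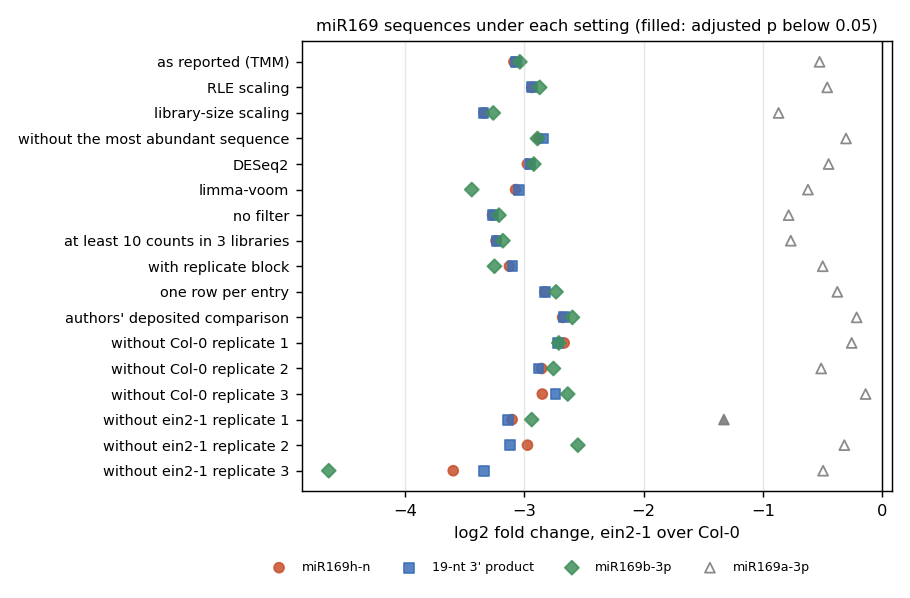
Genotype difference (x axis, log2, ein2-1 over Col-0) of the 4 miR169 sequences under each setting (rows), filled where the adjusted p is below 0.05. miR169h-n lies between -3.59 and -2.67 in every setting drawn, and miR169a-3p is filled only without ein2-1 replicate 1.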

How the data were processed

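Each precursor entry of the deposited tables has its raw counts and, per the file headers, the authors' normalised counts (a score rounded to whole numbers), their log2 fold change and mean log2 CPM, a likelihood ratio score, a p-value with its FDR, and psRNATarget sites with the expectation score and positions. The genome TAIR10 and the adapter trimmer cutadapt are named per the submitters' processing notes. The aligner and counter were not given in the sources used here. In the target sheet, 7 lines were not analysed here, and 12 columns of per-sample values in the shorter list were not used.

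Entries with the same mature sequence repeat the same counts, so 178 entries were reduced to 142 distinct sequences, which keeps reads from being counted several times. Totals over distinct sequences were 333025 to 987089 per library and cover listed miRNAs only. Counts were tested with edgeR 4.0.16 (quasi-likelihood, TMM, filterByExpr, genotype as the only term, adjusted p below 0.05) in R 4.3.3. SE is the log2 fold change divided by the root of F. The filter left out 22 sequences with 0.0268% of the counts. Ratios used limma 3.58.1. Both tests were first tested on simulated data with known changes. Sequences were placed on TAIR10.1 by exact match, and all 32 NF-Y transcripts of the target sheet lie within the reference gene. DESeq2 1.42.0 and limma-voom were alternatives, beside other scalings, filters and left-out libraries. Figures and tables used Python 3.11.15.

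The genes, lists and rules for naming were chosen with earlier results of these data known. Named are the member, other sequences in MIR169 hairpins, the 5 sequences most like the member by Pearson correlation, those with sites in 1 or 2 of the NF-YA genes, and the best 5 targets outside NF-YA. As 1 distinct member was found, the planned comparison between members was run against the other MIR169 sequences, a choice made after seeing the data.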

Additional observations from a re-analysis of the deposited data

How the results depend on the processing

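The fall of miR169h-n kept its direction and passed in all 17 alternatives, from -3.59 to -2.67, and so did those of the 19-nt product (-3.34 to -2.67) and miR169b-3p (-4.64 to -2.55). miR169a-3p passed in 1 of 17, without ein2-1 replicate 1. Leaving out each library in turn gave miR169h-n -3.59 to -2.67. Relative to TMM, the median sequence shifted by 0.10 under RLE, -0.30 under library-size scaling, 0.22 without the most abundant sequence and 0.20 with 1 row per entry. The number of sequences called higher was 25, and was 39 under RLE, 41 with 1 row per entry and 52 in the authors' deposited comparison. Higher calls made up 39.7% of all calls, against 50.0% under RLE, 31.5% under library-size scaling, 50.0% without the most abundant sequence and 51.9% with 1 row per entry. Leaving out each library in turn gave 22 to 50 sequences called higher, the 50 without Col-0 replicate 1. The sites of miR169h-n in the 7 NF-YA genes have an expectation of at most 2.5, so limits of 4 or 3 could not change their number. Whether replicate numbers pair the samples cannot be settled from so few libraries. The deviations of same-numbered libraries correlated at 0.158, -0.0586 and 0.158, and those of differently numbered libraries at -0.188 to 0.0628. With the replicate block miR169h-n had -3.12, and 69 sequences were called in place of 63, with no change of call in the 4 miR169 sequences. With 3 to 10 counts of miR169h-n per ein2-1 library, the 95% intervals of the differences between miR169 sequences were wide, the narrowest being -0.90 to 0.96 for the 19-nt product against miR169h-n. The part of depth in this width was not tested.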
